A study of Zea mays with 36 samples.

Results

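A set of 63 genes, out of the 43459 genes quantified in this study of maize, was abundant in root and, by its median, nearly silent in leaf, and its course in root through nitrate withdrawal and resupply is described here. A gene was taken when its median level over the 18 root libraries was at least 100 TPM (a length-corrected share of a library, scaled to 1000000) and its median over the 18 leaf libraries was at most 1/200 of that, and the rule leaves out 2 nitrate transporter genes, NRT2.1 and NRT2.2. With root medians of 7.35 and 7.40 TPM these would not have met it. Levels and the contrast between root and leaf chose the members and are given only as a description. The rule used no difference between time points.

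RNA was sequenced from roots and leaves of hydroponic maize plants of the inbred line B73, in 36 libraries, with 3 replicates at each of 6 time points in each tissue. All groups share the genotype and a growth of 12 days with nitrate, under 16 h of light and 8 h of dark. The groups are plants before withdrawal (0 h, normal nitrogen, NN), plants kept 0.5, 3 and 24 h without nitrate (nitrogen deprivation, ND), and plants taken at 24.5 h and 48 h after nitrate had been returned at 24 h (nitrogen recovery, NR). Root libraries mix seminal and crown roots, and leaf libraries hold fully developed leaves. Each library is a pool of plants, of 5 per the labels and of 10 to 15 per the methods of the study. The label of the last group reads 48 h, the protocol text can be read as 48 h after resupply, and the methods place it 24 h after resupply, which is the reading used here. No plants were kept on nitrate alongside, so time without nitrate, plant age and, at 0.5, 3 and 24.5 h, the hour of the day cannot be told apart in the comparisons with 0 h.

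Roots take up water and mineral nutrients, anchor the plant and meet soil microbes, and much of what they express strongly and leaves do not serves the cell wall, transport and defence. Class III peroxidases oxidise phenolic compounds and cross-link wall polymers, glycine-rich structural proteins are deposited in cell walls, and 1-aminocyclopropane-1-carboxylate (ACC) oxidase carries out the last step in the synthesis of the hormone ethylene. Nitrate acts on roots both as a nutrient and as a signal that changes the transcription of uptake and assimilation genes within minutes.

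The deposited tables do not pair identifiers with names. The supplementary tables of the study describe 5 of the 63 members, of which 3 have a named function: Zm00001eb289750, glycine-rich cell wall structural protein 2, Zm00001eb076180, Peroxidase 12, and Zm00001eb201390, an ACC oxidase. The other described members are listed as uncharacterized. Zm00001eb023070 is LOC100285357, on chromosome 1 from 89986600 to 89987415, and Zm00001eb222370 is LOC101027116, on chromosome 5 from 32830887 to 32832065, both protein coding in the RefSeq annotation of the NAM-5.0 assembly. The remaining members are given by identifier, with no function assigned. None of the 371 genes of the study's nitrogen network is a member.

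The description as nearly silent in leaf rests on medians and did not hold in every library. In 6 of the 18 leaf libraries the members' median level was above 0.5% of their mean root level, the share that the rule allows for the leaf median. Values ran down to 21.5 TPM in single root libraries and up to 143 TPM, for the most abundant member, in single leaf libraries. Since the rule chose members on these levels, their separation between the tissues is a description only. LHCB5, a light-harvesting protein and a marker of leaf tissue, was low in root, at 0 to 17.96 TPM against 482 to 1423 TPM in leaf. PPDK2, which the study places in carbon metabolism, ran from 0 to 1.04 TPM in root against 27.4 to 94.8 TPM in leaf. PEPC6 did not separate the tissues, at 56.1 to 102 TPM in root and 34.3 to 99.1 TPM in leaf. The median root level of 157 leaf-specific genes chosen by the mirrored rule ran from 0.0458% to 1.82% of their leaf level. It was highest in 24.5 h replicate 3, 3 h replicate 1 and 0.5 h replicate 2. This level is called leaf RNA below for short, and whether it came from leaf tissue was not tested. Root 48 h replicate 2 stood apart, with a mean correlation over genes of 0.952 with its own replicates against 0.975 with 24 h replicate 3. Counts without these libraries are given, and for 25 named changes it is stated where the call was lost. The 25 are the 3 largest called rises and falls of each contrast and the change called in the comparison of resupply with withdrawal. Other calls printed below were not followed singly in the refits, so whether they held is not given. The setting without the 3 libraries of highest leaf RNA was added after the data were seen.

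Root medians of the members ran from 3412 TPM down to the threshold. Of the 63, 5 were above 1000 TPM, 5 lay between 500 and 1000 TPM and 36 were under 200 TPM, with a median of 177 TPM. Just inside the level threshold were Zm00001eb267490 at 103 TPM and Zm00001eb330530 at 106 TPM, and just outside it Zm00001eb267500 at 99.5 TPM and Zm00001eb413260 at 96.6 TPM. Just inside the tissue threshold were Zm00001eb408940 and Zm00001eb403860, at 203 and 207 times the leaf median, and just outside it Zm00001eb167340 and Zm00001eb167690, at 199 and 192 times. Together the members made up 2.88% ± 0.212 (SD, n = 3) of all root TPM at 0 h.

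The most abundant member, Zm00001eb411380, was at 3826, 5193 and 5316 TPM at 0 h, 3715, 3560 and 4415 TPM at 0.5 h, and 5912, 6197 and 5368 TPM at 3 h. From 24 h on it was at 2130, 1993 and 2511 TPM, then at 2720, 2472 and 2585 TPM at 24.5 h and 3158, 2174 and 3265 TPM at 48 h. All 9 libraries from 24 h on lay below all 9 earlier ones. Against 0 h it fell at 24 h by 1.10 on the log2 scale (SE 0.164, limma adjusted p = 0.000615), and the difference was -0.87 at 24.5 h and -0.75 at 48 h, both with an adjusted p under the threshold (0.00223 and 0.00771) but short of a log2 difference of 1. The next members by level were Zm00001eb391690 with a median of 2072 TPM, Zm00001eb091180 with 1972 TPM, Zm00001eb091170 with 1686 TPM and Zm00001eb091110 with 1604 TPM. Of these 4, only Zm00001eb091110 was called at any time.

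**Figure D1:**
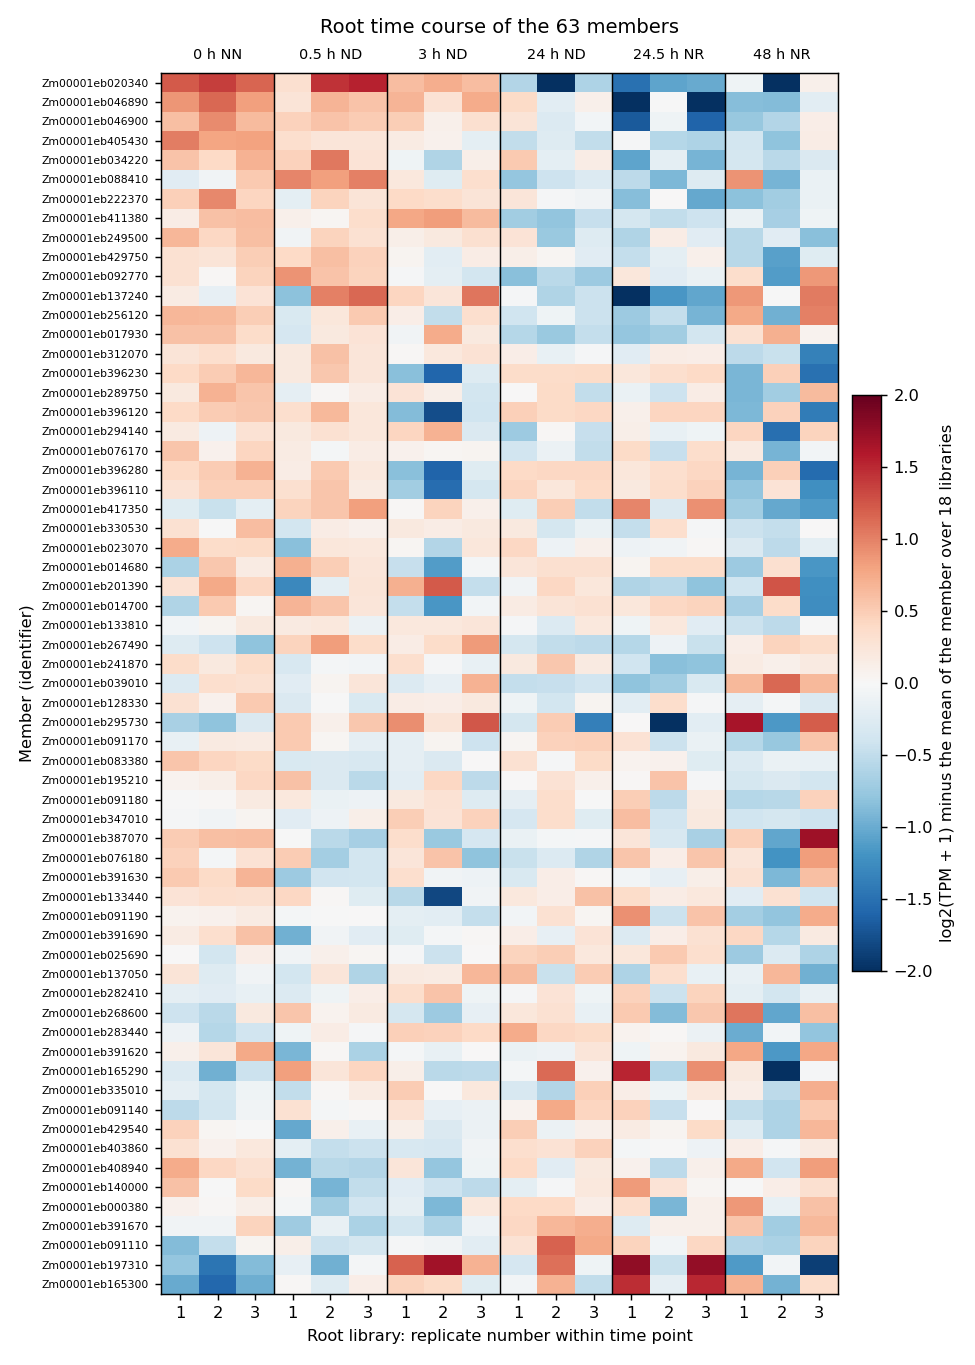
Root time course of the 63 members. Each row is a member, ordered by the mean of 24, 24.5 and 48 h minus the mean of 0 and 0.5 h, each column is a root library, and colour is log2(TPM + 1) minus the member's mean over the 18 libraries, cut at -2 and 2. Rows at the top, led by Zm00001eb020340, are red before 24 h and blue after it, rows at the bottom, Zm00001eb197310 and Zm00001eb165300, are blue at 0 h, and the 3 columns of 48 h often differ among themselves.

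Changes over time were tested with limma on log2(TPM + 1) across all 26245 root genes that reached 1 TPM in at least 3 libraries, and all 63 members were among these. A gene was called at an adjusted p under 0.05 and a log2 difference above 1. An F-test over the 5 later time points passed for 34 of the 63 members (54%), between the 47.3% of all genes tested and the 68.3% of the 1837 other root genes with a median of at least 100 TPM. In the 7 contrasts, 25 members were called at least once, 23 of them also past the F-test. A further 11 passed the F-test and were called in none of the 7, among them Zm00001eb140000, which was called in the comparison of resupply with withdrawal described further on, and 27 were neither called nor past it. Against 0 h, 19 members were called lower at some time, 4 were called higher and none was called in both directions. The shares of all genes called at least once, or in each direction at any time, are not given, so these counts have no background. These comparisons share the 0 h libraries. In bulk RNA, fewer cells of a type and less RNA per cell cannot be told apart.

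After 0.5 h without nitrate 3 members were called (4.76%, against 2.91% of all genes tested and 1.69% of the other abundant genes), 1 higher and 2 lower, where 1.77% and 1.14% of all genes were. At 3 h 7 were called (11.1%, against 3.72% and 2.83%), 2 higher and 5 lower, where 1.12% and 2.6% of all genes were. At 24 h 5 were called (7.94%, against 3.76% and 2.61%), 1 higher and 4 lower, where 1.19% and 2.58% of all genes were. With nitrate returned for 0.5 h, at 24.5 h, 11 differed from 0 h (17.5%, against 5.19% and 2.12%), 2 higher and 9 lower, where 2.99% and 2.21% of all genes were. At 48 h 9 were called (14.3%, against 3.45% and 1.8%), all of them lower, where 2.42% of all genes were lower and 1.04% higher. Limma thus called 0 members higher at 48 h, with 3 higher at an unadjusted p under 0.05. On the limma adjusted p alone, without the limit on size, 15.9%, 20.6%, 14.3%, 27% and 28.6% of the members passed, in the same order of time. Of the other abundant genes 25.4%, 29.8%, 37.7%, 32.2% and 30.8% passed, more than of the members at each time. Of all genes 14.3%, 15.7%, 20%, 21.2% and 15.5% did. The members' replicates scattered more, as described further on, and the part of this in the shares was not tested. The median log2 difference of the members from 0 h went from -0.20 after 0.5 h to -0.29 after 3 h and -0.15 after 24 h, and in recovery from -0.20 (24.5 h) to -0.35 (48 h), whereas that of all genes tested lay between -0.081 and 0.053. Median-of-ratios scaling brought the members' median closer to 0, to -0.10 after 0.5 h and -0.066 after 24 h, and gave -0.29, -0.24 and -0.32 at 3, 24.5 and 48 h. At 48 h 51 of the 63 members lay below 0 h and 12 above. The median difference of the other abundant genes at 48 h was 0.027, and their counts below and above are not given. Members share these libraries and some vary together, so they are not 63 independent observations. The number of calls depended on single libraries: at 3 h it was 0 without 3 h replicate 2, 4 without 0 h replicate 2 and 3 without 0 h replicate 3. At 48 h it was 5 without 0 h replicate 2, and at 0.5 h it was 1 without 0 h replicate 3. Without 48 h replicate 2, the library that stood apart, 12 members were called at 48 h, 3 higher and 9 lower, 7 of them among the 9 called with it, and 42 passed the F-test. Shares of all genes in these refits are not given, so a change over all genes cannot be told apart from one of the members.

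**Figure D2:**
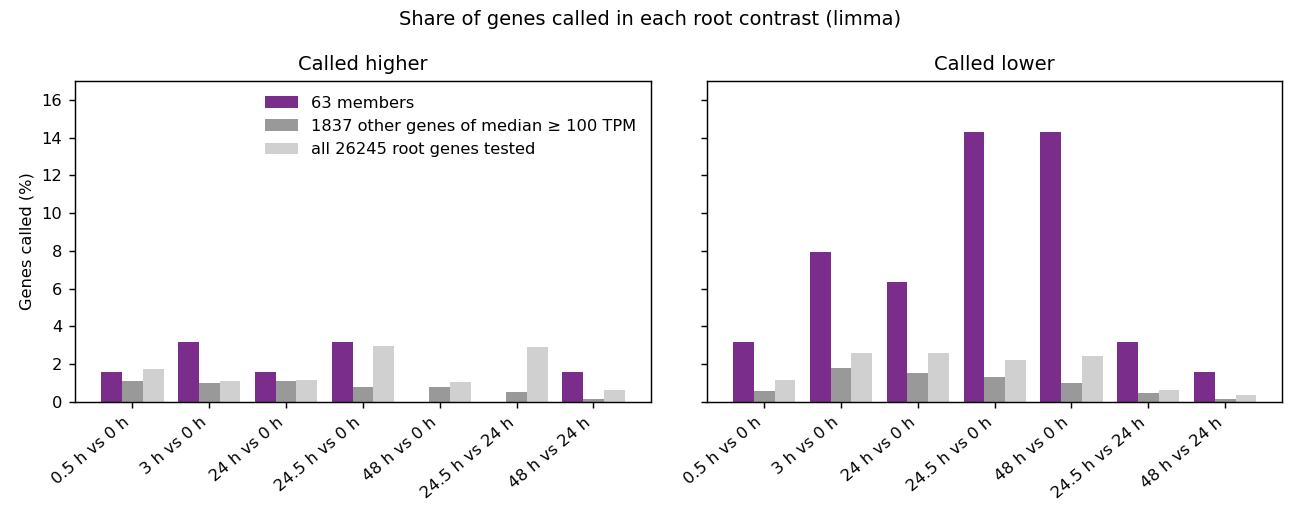
Share of genes called higher (left) and lower (right) in each of the 7 root contrasts, in percent of the genes in each class. Bars are the 63 members, the 1837 other root genes with a median of at least 100 TPM, and all 26245 genes tested. The members' bars for lower calls reach 14.3% at 24.5 h and 48 h against 0 h, where all genes tested reach 2.21% and 2.42%. Calls need a log2 difference above 1. On adjusted p alone the members' share was below that of the other abundant genes in each contrast with 0 h.

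Among the members that fell, Zm00001eb020340 had the widest range, with its highest time point mean 5.42 times its lowest. It was at 559, 628 and 540 TPM at 0 h, 299, 653 and 694 TPM at 0.5 h, and 367, 398 and 367 TPM at 3 h. It was at 159, 53.7 and 155 TPM at 24 h, 84.5, 115 and 119 TPM at 24.5 h, and 226, 51.6 and 257 TPM at 48 h. All 9 libraries from 24 h on lay below all 9 earlier ones. Against 0 h it fell by 2.38 on the log2 scale at 24 h (SE 0.505, limma adjusted p = 0.00489), by 2.44 at 24.5 h (adjusted p = 0.00373) and by 1.98 at 48 h (adjusted p = 0.0162). The call at 48 h was lost without 0 h replicate 2 (adjusted p = 0.0567), and without 48 h replicate 2 the difference was -1.25.

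Zm00001eb405430 was at 289, 248 and 249 TPM at 0 h, then at 180, 169 and 168 TPM at 0.5 h and 159, 152 and 124 TPM at 3 h. It was at 101, 119 and 101 TPM at 24 h, 139, 95.8 and 92.0 TPM at 24.5 h, and 110, 81.0 and 158 TPM at 48 h. Each later library was below each 0 h library. Its difference from 0 h was -0.60 at 0.5 h (adjusted p = 0.0506) and -0.85 at 3 h (adjusted p = 0.00800), and it fell by 1.29 at 24 h (SE 0.195, adjusted p = 0.000664), 1.28 at 24.5 h and 1.21 at 48 h. No change was detected after resupply, with a log2 difference of 0.01 (SE 0.195) between 24.5 h and 24 h and 0.08 between 48 h and 24 h. Without 48 h replicate 2 the difference between 48 h and 0 h was -0.98, short of the limit.

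Zm00001eb017930, the tenth member by level, was low at 24 and 24.5 h only. It was at 813, 813 and 704 TPM at 0 h, 431, 625 and 658 TPM at 0.5 h, and 518, 906 and 623 TPM at 3 h. It was at 366, 323 and 388 TPM at 24 h, 316, 335 and 419 TPM at 24.5 h, and 668, 893 and 573 TPM at 48 h. The 6 libraries of 24 and 24.5 h lay below the other 12. It fell against 0 h by 1.11 at 24 h (SE 0.207, adjusted p = 0.00216) and by 1.13 at 24.5 h (adjusted p = 0.00186), and at 48 h the difference was -0.15 (adjusted p = 0.675). Between 24 h and 48 h it differed by 0.96 (adjusted p = 0.0199), just under the limit on size.

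A pair of members with neighbouring identifiers, Zm00001eb046890 and Zm00001eb046900, was lowest at 24.5 h. Zm00001eb046890 was at 200, 239 and 190 TPM at 0 h, 129, 172 and 160 TPM at 0.5 h, 172, 132 and 180 TPM at 3 h, and 140, 92.1 and 116 TPM at 24 h. It was at 21.5, 107 and 23.8 TPM at 24.5 h and 58.7, 58.3 and 92.7 TPM at 48 h. Its 0 h libraries were above all 15 others, and at 24.5 h replicates 1 and 3 were far below replicate 2, which lay within the range of 24 h. It fell by 2.42 at 24.5 h (SE 0.414, adjusted p = 0.00120) and by 1.60 at 48 h (adjusted p = 0.0175) against 0 h. Against 24 h it fell by 1.55 in the first 0.5 h of resupply (adjusted p = 0.0178), a call that was lost without 24 h replicate 1 or without 24.5 h replicate 1 or 3, when its adjusted p reached 0.0915. Zm00001eb046900 was at 195, 247 and 199 TPM at 0 h and at 39.1, 120 and 41.6 TPM at 24.5 h. Against 0 h it fell by 1.85 at 24.5 h (SE 0.322, adjusted p = 0.00132) and by 1.13 at 48 h (adjusted p = 0.0272). Against 24 h it fell by 1.10 (adjusted p = 0.0279), which was lost in 4 of 6 fits that left out 1 library, with an adjusted p up to 0.128. Without the 3 root libraries of highest leaf RNA neither of the pair was called against 24 h (adjusted p = 0.130 and 0.168).

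The uncharacterized member Zm00001eb222370 followed this pair, with Pearson correlations of 0.933 and 0.914 over the 18 root libraries, the former the highest among the 1926 pairs that do not fall into 1 run of close identifiers (defined with the runs further on). Its values were 137, 192 and 133 TPM at 0 h, 85.3, 133 and 117 TPM at 0.5 h, 129, 125 and 117 TPM at 3 h, and 116, 95.8 and 93.1 TPM at 24 h. They were 53.8, 98.9 and 47.5 TPM at 24.5 h and 54.9, 59.97 and 89.2 TPM at 48 h. All libraries of 24.5 h and 48 h lay below all of 0 h, with 24.5 h replicate 2 again the highest of its group. It fell by 1.25 at 24.5 h (SE 0.246, adjusted p = 0.00281) and by 1.18 at 48 h (adjusted p = 0.00566). The points behind these correlations share their libraries.

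The 4 members between Zm00001eb396110 and Zm00001eb396280 in identifier order were low at 3 h, near their 0 h level at 24 h, and split between replicates at 48 h. Zm00001eb396280 was at 299, 323 and 368 TPM at 0 h, 252, 326 and 265 TPM at 0.5 h, and 128, 74.3 and 192 TPM at 3 h. It was at 300, 303 and 303 TPM at 24 h, 266, 287 and 304 TPM at 24.5 h, and 119, 317 and 77.9 TPM at 48 h. At 3 h all libraries were below all of 0 h and 0.5 h, and at 48 h replicates 1 and 3 were low while replicate 2 was at the 24 h level. At 3 h it fell by 1.42 against 0 h (SE 0.374, adjusted p = 0.0176), and Zm00001eb396230 by 1.42, Zm00001eb396110 by 1.27 and Zm00001eb396120 by 1.499 (adjusted p from 0.0101 to 0.0153). At 48 h Zm00001eb396280 fell by 1.19 (adjusted p = 0.0415) and Zm00001eb396230 by 1.17 (adjusted p = 0.0402), and Zm00001eb396120 was at -1.10 with an adjusted p of 0.0513. Without 3 h replicate 2 the 3 h difference of Zm00001eb396280 was -1.07 (adjusted p = 0.0895) and that of Zm00001eb396120 -1.12 (adjusted p = 0.0583). Without the 3 root libraries of highest leaf RNA the 3 h calls of Zm00001eb396280 and Zm00001eb396230 were lost (adjusted p = 0.0718 and 0.0662) and that of Zm00001eb396120 was kept (adjusted p = 0.0464). The ratio of Zm00001eb396280 to Zm00001eb396230 stayed between 0.988 and 1.06 in all 18 libraries, with a correlation of 0.999. Whether these 4 are near-identical copies, which may share reads, was not examined. How the level is divided among them is therefore uncertain, and they are not 4 independent observations.

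The fifth member called lower at 3 h, Zm00001eb133440, dipped in the same replicates without being part of that run. It was at 165, 172 and 171 TPM at 0 h and 92.6, 37.8 and 131 TPM at 3 h, then at 158, 149 and 206 TPM at 24 h. The 3 h libraries lay below those of 0 h, with replicate 2 the lowest. It fell by 1.12 (SE 0.317, adjusted p = 0.0257). Zm00001eb014680 and Zm00001eb014700, neighbours with a correlation of 0.993, had the same low libraries: the first was at 114, 71.6 and 153 TPM at 3 h and 94.2, 196 and 69.3 TPM at 48 h. With 0 h values of 100, 229 and 175 TPM its groups overlapped, and its 3 h difference of -0.56 had an adjusted p of 0.296.

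**Figure D3:**
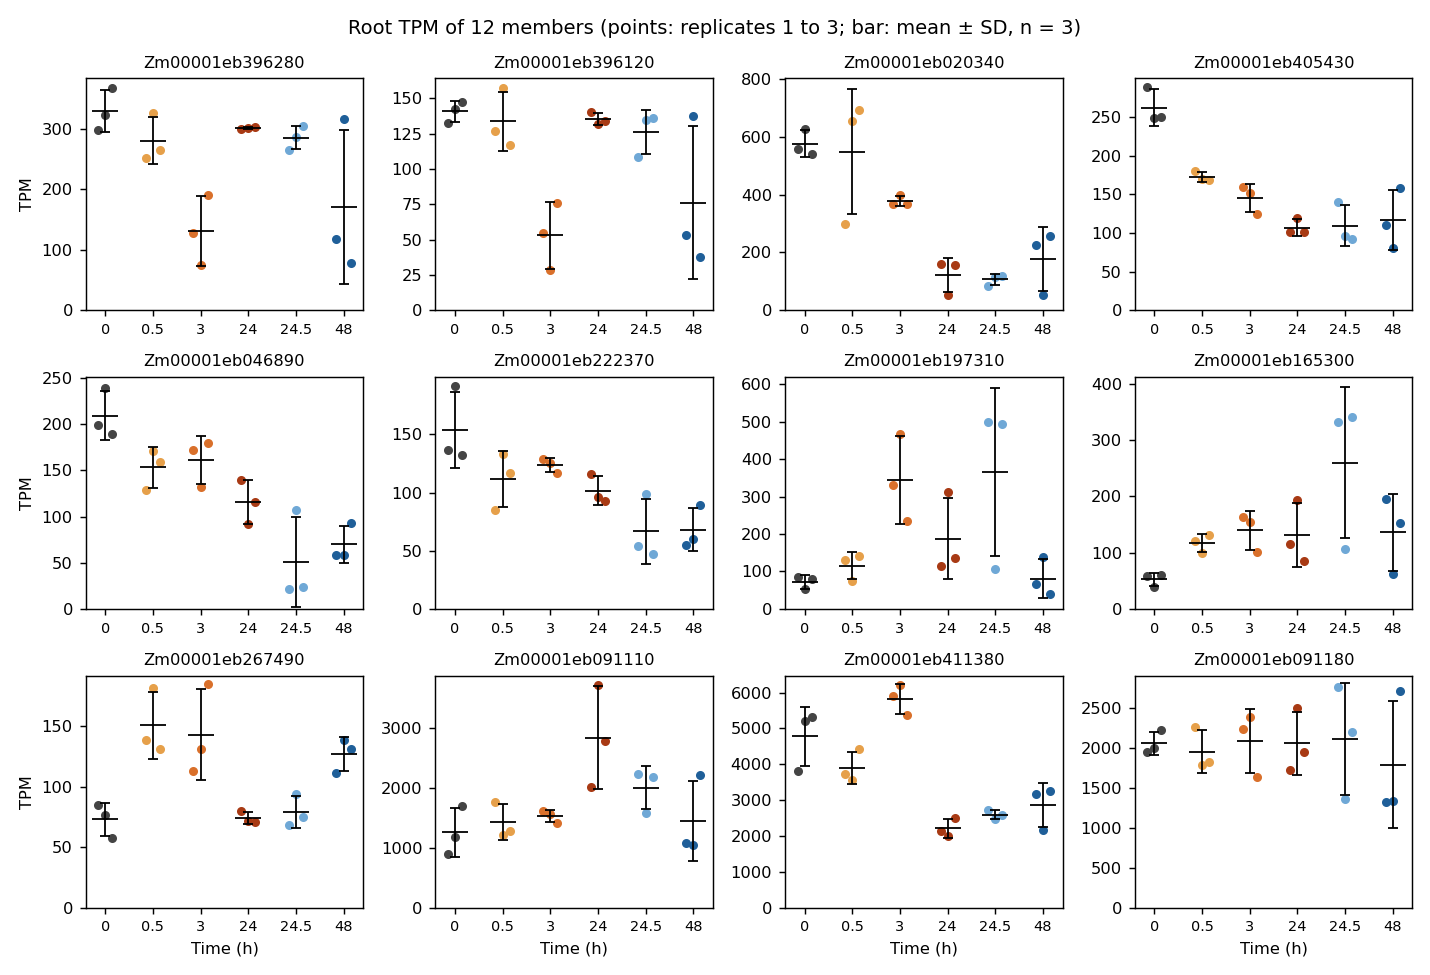
Root TPM of 12 members against time in hours, evenly spaced and not to scale. Points are replicates 1 to 3 and the bars are the mean and SD (n = 3). Zm00001eb020340 is under 260 TPM from 24 h on, Zm00001eb396280 is low at 3 h and in 2 of 3 libraries of 48 h, Zm00001eb165300 is above its 0 h libraries in all 15 later ones, and Zm00001eb091180 keeps overlapping groups throughout.

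Rises were called in fewer members. Zm00001eb197310 was at 84.9, 51.9 and 79.3 TPM at 0 h, 130, 74.4 and 141 TPM at 0.5 h, and 330, 467 and 235 TPM at 3 h. It was at 115, 311 and 137 TPM at 24 h, 498, 106 and 493 TPM at 24.5 h, and 65.3, 140 and 38.6 TPM at 48 h. The libraries of 3, 24 and 24.5 h were all above those of 0 h, and 48 h overlapped with 0 h. It rose by 2.22 at 3 h (SE 0.564, limma adjusted p = 0.0148) and by 2.06 at 24.5 h (adjusted p = 0.0176). The 3 h call was lost without 0 h replicate 2 or 3 h replicate 2, and the 24.5 h call without 0 h replicate 2 or 24.5 h replicate 1 or 3, with adjusted p up to 0.0629 and 0.0867. Both were lost without the 3 root libraries of highest leaf RNA, at adjusted p of 0.0515 and 0.112.

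Zm00001eb165300 was at 58.4, 39.4 and 59.8 TPM at 0 h, 121, 99.8 and 131 TPM at 0.5 h, 163, 155 and 100 TPM at 3 h, and 115, 194 and 84.3 TPM at 24 h. It was at 333, 106 and 342 TPM at 24.5 h and 194, 61.2 and 153 TPM at 48 h. Every one of the 15 later libraries was above the 3 of 0 h. It rose by 2.13 at 24.5 h (SE 0.451, adjusted p = 0.00432) and by 1.39 at 3 h (adjusted p = 0.0483), the latter being lost in 5 of 6 fits that left out 1 library and without the 3 root libraries of highest leaf RNA (adjusted p = 0.161). At 0.5, 24 and 48 h the differences were 1.16, 1.24 and 1.23, with adjusted p of 0.0984, 0.0639 and 0.0767. Its neighbour in identifier order, Zm00001eb165290, was 3.42 to 13.0 times as abundant and was not called, with a difference of 1.19 at 24.5 h (SE 0.552, adjusted p = 0.140).

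The least abundant member, Zm00001eb267490, was higher early and again late. It was at 85.0, 76.4 and 57.6 TPM at 0 h, 139, 182 and 131 TPM at 0.5 h, and 113, 132 and 185 TPM at 3 h. It was at 79.8, 72.1 and 70.9 TPM at 24 h, 68.4, 94.4 and 74.7 TPM at 24.5 h, and 111, 139 and 131 TPM at 48 h. The libraries of 0.5, 3 and 48 h were all above those of 0 h, whereas those of 24 and 24.5 h overlapped with 0 h. It rose by 1.04 at 0.5 h (SE 0.186, adjusted p = 0.00213), and the differences of 0.95 at 3 h (adjusted p = 0.00313) and 0.80 at 48 h (adjusted p = 0.00981) passed on p alone. Without 0 h replicate 3 or 0.5 h replicate 2 the 0.5 h difference fell short of 1, at 0.88 in the lower case, and without the 3 root libraries of highest leaf RNA it was 0.90.

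Zm00001eb091110, the fifth member by level, was at 899, 1181 and 1699 TPM at 0 h and 2016, 3732 and 2792 TPM at 24 h. All 24 h libraries were above those of 0 h, and those of 24.5 h, at 2235, 1590 and 2196 TPM, overlapped with both. It rose by 1.18 at 24 h (SE 0.293, adjusted p = 0.0112). The call was lost without 0 h replicate 1 or without 24 h replicate 2, with a difference down to 0.96 and an adjusted p up to 0.0606.

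Early falls were seen in Zm00001eb408940 and Zm00001eb391630. Zm00001eb408940 was at 277, 220 and 203 TPM at 0 h and 85.1, 112 and 109 TPM at 0.5 h, and fell by 1.19 (SE 0.307, adjusted p = 0.0186). Zm00001eb391630 was at 699, 638 and 784 TPM at 0 h and 295, 373 and 377 TPM at 0.5 h, and fell by 1.02 (SE 0.270, adjusted p = 0.0203). Neither overlapped between these groups. At 3 h their differences from 0 h were -0.69 and -0.47, with adjusted p of 0.143 and 0.259. Both calls were sensitive to single libraries: that of Zm00001eb408940 was lost without replicate 1 or 2 of 0 h or replicate 1 of 0.5 h, and that of Zm00001eb391630 without 0 h replicate 3 or 0.5 h replicate 1. Without the 3 root libraries of highest leaf RNA their adjusted p were 0.0501 and 0.0649.

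The other members called lower at 24.5 h against 0 h were Zm00001eb137240, which fell by 1.504, Zm00001eb256120 by 1.32 and Zm00001eb034220 by 1.28 (adjusted p from 0.00268 to 0.0221). Zm00001eb137240 was at 118, 94.0 and 127 TPM at 0 h, 25.1, 46.5 and 50.3 TPM at 24.5 h, and 193, 105 and 218 TPM at 48 h. Its 24.5 h libraries were the lowest of all 18. Besides the members described above, those called lower at 48 h were Zm00001eb249500, which fell by 1.10 (adjusted p = 0.00557), and Zm00001eb312070, which fell by 1.03 (adjusted p = 0.00273). Zm00001eb312070 was at 251, 265 and 240 TPM at 0 h and 146, 154 and 82.0 TPM at 48 h, below all earlier libraries.

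Between 24 h and 24.5 h, the first 0.5 h of resupply, limma called 2 members lower (3.17%, against 3.54% of all genes and 1.03% of the other abundant genes called in either direction) and 0 higher. Of all genes 0.644% were called lower and 2.9% higher. At an unadjusted p under 0.05, 1 member was higher and 10 were lower. The 2 were Zm00001eb046890 and Zm00001eb046900 above. Between 24 h and 48 h 2 members were called (3.17%, against 0.987% of all genes and 0.327% of the other abundant genes), 1 higher and 1 lower, where 0.625% and 0.362% of all genes were. Zm00001eb039010 was at 359, 366 and 383 TPM at 24 h and 786, 1116 and 786 TPM at 48 h, and rose by 1.26 (SE 0.235, adjusted p = 0.0121). Zm00001eb283440 was at 375, 299 and 292 TPM at 24 h and 112, 214 and 129 TPM at 48 h, and fell by 1.13 (SE 0.184, adjusted p = 0.00770). Neither overlapped between these groups. Counts for 48 h against 24 h hung on 48 h replicate 2, and leaving it out raised them to 13 members, 5 higher and 8 lower. They were 1 without 24 h replicate 2 or 48 h replicate 1, and 4 without 24 h replicate 3 or 48 h replicate 3. Counts for 24.5 h against 24 h were 6 without 24.5 h replicate 2, 1 without 24 h replicate 1 or 24.5 h replicate 1, and 0 without 24.5 h replicate 3. The shares of all genes called in these refits are not given.

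Withdrawal and resupply were also compared directly, as the difference between the change from 24 to 24.5 h and that from 0 to 0.5 h. Only Zm00001eb140000 was called (1.59% of members, against 4.82% of all genes tested and 4.25% of the other abundant genes). It was at 187, 123 and 161 TPM at 0 h and 127, 64.6 and 87.9 TPM at 0.5 h, then at 108, 122 and 143 TPM at 24 h and 224, 150 and 128 TPM at 24.5 h. The groups of each interval overlapped. Its change was -0.78 on withdrawal (adjusted p = 0.0333) and 0.40 on resupply (adjusted p = 0.252), a difference of 1.18 (SE 0.326, adjusted p = 0.0251). It was not called without the 3 root libraries of highest leaf RNA (adjusted p = 0.0588). Of 14 tested nitrate assimilation genes from the study's network, 7 were called higher in this comparison, where 3.59% of all genes were, and of 15 nitrogen transporter genes limma called 0, with 3 higher at an unadjusted p under 0.05. Against 0 h the assimilation genes gave 5 lower calls after 0.5 h, 7 after 3 h and 4 after 24 h, then 2 higher and 1 lower after 24.5 h and 0 after 48 h (limma, with 1 higher and 1 lower at an unadjusted p under 0.05). The transporter genes gave 0 calls after 0.5 h (limma, with 1 higher and 2 lower at an unadjusted p under 0.05), 1 lower after 3 h, 3 higher and 2 lower after 24 h, 4 higher and 1 lower after 24.5 h, and 1 lower after 48 h. The shares of all genes called in these contrasts, 2.91% to 5.19%, stand with the members' counts above.

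The remaining 38 members were called in none of the 7 contrasts. Zm00001eb091180 had the smallest ratio of highest to lowest time point mean of the members, 1.18, with means from 1791 ± 796 TPM (SD, n = 3) at 48 h to 2108 ± 701 TPM at 24.5 h. It was at 1950, 1994 and 2222 TPM at 0 h and 1325, 1338 and 2710 TPM at 48 h, so its replicates at 48 h differed by more than its means did. Zm00001eb335010 followed at 1.38 and Zm00001eb429540 at 1.41. Over all members this ratio had a median of 2.07, against 1.43 for the other abundant genes, and was under 1.5 in 9, from 1.5 to 2 in 20 and at least 2 in 34. Such a ratio also grows with scatter between replicates, whose median SD was 0.393 in the members and 0.145 in the other abundant genes. The part of this scatter in the ratio was not tested. The F-test passed for 54% of the members and 68.3% of the other abundant genes. The time of the highest mean was 0 h for 22 members, 24.5 h for 10, 48 h for 7 and 0.5, 3 or 24 h for 8 each. This was not counted for other genes.

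The members with a named function did not change detectably, and all 3 missed the F-test. Peroxidase 12 (Zm00001eb076180) was at 142, 99.7 and 126 TPM at 0 h, 75.3, 84.7 and 67.3 TPM at 24 h, and 150, 112 and 151 TPM at 24.5 h. Its 24 h libraries were below those of 0 h and 24.5 h, but the differences of -0.68 (SE 0.431) against 0 h and 0.85 between 24.5 and 24 h had adjusted p of 0.285 and 0.188. The ACC oxidase (Zm00001eb201390) was at 124, 172 and 135 TPM at 0 h, 66.7, 69.4 and 57.2 TPM at 24.5 h, and 76.7, 244 and 42.9 TPM at 48 h. Its 24.5 h libraries were below those of 0 h, with a difference of -1.14 (SE 0.521, adjusted p = 0.134). At 48 h its replicates lay far apart, with replicate 2 the highest of all 18 libraries. The glycine-rich protein (Zm00001eb289750) was at 382, 535 and 489 TPM at 0 h and 175, 203 and 515 TPM at 48 h, which overlapped, with a difference of -0.81 (SE 0.322, adjusted p = 0.1005). The uncharacterized Zm00001eb023070 was at 1625, 1247 and 1269 TPM at 0 h and 797, 673 and 850 TPM at 48 h. Its groups did not overlap, and its difference of -0.83 (SE 0.253, adjusted p = 0.0363) passed on p but not on size.

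Members whose identifiers lay close together varied together over the root libraries. With identifiers joined when their numbers differed by at most 200, a limit chosen after the values were seen, 23 members fell into 8 runs. Pearson correlation of log2(TPM + 1) over the 18 root libraries had a median of 0.787 over the 27 pairs within runs and 0.060 over the 1926 other pairs. The run of 5 from Zm00001eb091110 to Zm00001eb091190 held 3 of the 5 most abundant members, with correlations from 0.570 to 0.860, and the run of 4 from Zm00001eb391620 to Zm00001eb391690 had correlations from 0.585 to 0.870. The run of Zm00001eb076170 and the peroxidase Zm00001eb076180 had a correlation of 0.655, and that of Zm00001eb137050 and Zm00001eb137240 one of 0.086. The ratio of Zm00001eb014680 to Zm00001eb014700 ran from 1.13 to 1.39, and that of Zm00001eb396110 to Zm00001eb396120 from 1.16 to 1.58. Close identifiers generally mark neighbours on the chromosome, where related copies can share reads, and the division of a level between such copies is uncertain.

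Replicates of the members scattered more than those of other abundant genes. The SD between replicates on the log2 scale, pooled over the time points, had a median of 0.393 in the members and 0.145 in the other abundant genes, and 48 of 63 members exceeded the 90th percentile of those genes, 0.284. At 48 h the median SD of the members was 0.592, against 0.166 in the other genes, and at the other times it was 0.213 to 0.283, against 0.103 to 0.121. Relative to their group mean at 48 h, 42 of 63 members were lower in replicate 2 (median -0.20) and 42 were higher in replicate 3 (median 0.21). Accordingly the standard error of a log2 difference had a median of 0.287 in the members and 0.118 in the other abundant genes.

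**Figure D4:**
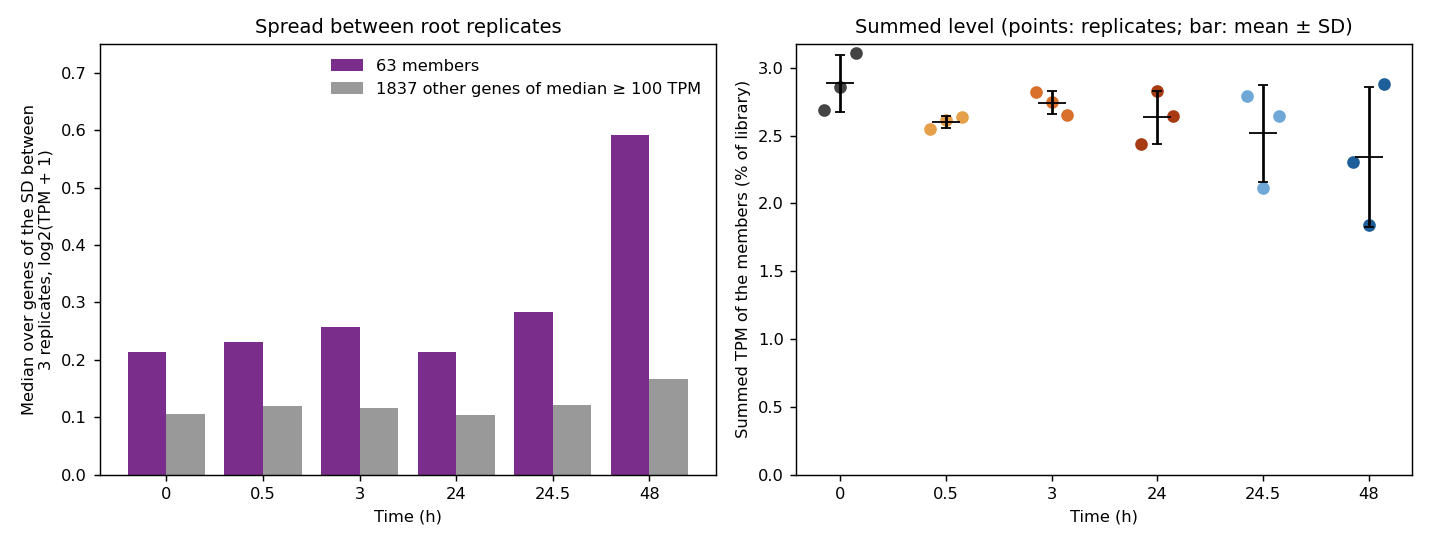
Left, the median over genes of the SD between 3 root replicates, on the log2(TPM + 1) scale, at each time in hours, for the 63 members and the 1837 other abundant root genes. Right, the summed TPM of the members as a percentage of each root library, with points for replicates and bars for mean and SD (n = 3). The members' bar at 48 h is 0.592, and the lowest summed level is 1.84% in 48 h replicate 2.

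The summed level of the members was 2.60% ± 0.0442 (SD, n = 3) of the root library at 0.5 h, 2.74% ± 0.0852 at 3 h and 2.63% ± 0.195 at 24 h. It was 2.52% ± 0.356 at 24.5 h and 2.34% ± 0.517 at 48 h, with 1.84% in 48 h replicate 2 and 2.88% in 48 h replicate 3. At 0.5 h all 3 libraries, from 2.55% to 2.63%, lay below those of 0 h, which began at 2.69%, and the other 4 groups each overlapped with 0 h. Leaf RNA in the root libraries of 48 h was 0.351% to 0.920% of the leaf level, against 0.111% to 0.225% at 0 h, and its part in the differences was not tested. With the 3 root libraries of highest leaf RNA left out, the calls at 3 h went from 7 to 3 and those past the F-test from 34 to 22, and no member remained called at 0.5 h. That fit has fewer libraries, and its shares of all genes called are not given. Of the 25 named changes 11 lost their call there: those of Zm00001eb267490, Zm00001eb408940 and Zm00001eb391630 at 0.5 h, of Zm00001eb197310, Zm00001eb165300, Zm00001eb396280 and Zm00001eb396230 at 3 h, of Zm00001eb197310 at 24.5 h, of Zm00001eb046890 and Zm00001eb046900 between 24 and 24.5 h, and of Zm00001eb140000 in resupply minus withdrawal. The other 14 kept it.

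In leaf libraries the members were low but not evenly so. Each member's leaf TPM was expressed as a percentage of its mean root TPM, and the median over members was 2.79% in leaf 0 h replicate 1, where all 63 reached 1 TPM and their sum was 778 TPM. It was 0.167% and 0.09999% in the other 0 h replicates. It was 1.94%, 0.781% and 2.46% in the 24.5 h replicates, 0.325%, 1.37% and 0.243% in those of 48 h, and 0.557% in 3 h replicate 3. The remaining libraries of 0.5, 3 and 24 h lay between 0% and 0.117%. Replicates of the same group thus differed, most widely at 0 h. The highest leaf library was 0 h replicate 1 for 32 members, 24.5 h replicate 3 for 26, 24.5 h replicate 1 for 4 and another for 1. Of the members with a named function, Peroxidase 12 was at 2.84, 0.386 and 0.216 TPM in leaf at 0 h and 3.41, 0.927 and 4.35 TPM at 24.5 h.

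The same libraries stood out for 212 root-specific genes of lower level, with a root median of 20 to 100 TPM and the same limit on leaf, a class defined after the members' leaf values were seen. Their median was 2.34% in leaf 0 h replicate 1 and 1.93%, 0.821% and 2.195% at 24.5 h. In leaf 0 h replicate 1 the members' leaf levels tracked their mean root levels, with a Pearson correlation of 0.934 on the log10 scale across the 63 genes, which share their library. The correlation was 0.923, 0.898 and 0.925 in the 24.5 h replicates and 0.894 in 48 h replicate 2. In the other leaf libraries it ran from 0.451 to 0.775. A source of these low leaf values was not tested. With means over the 18 libraries in place of medians, 5 genes met the rule, 1 of them among the 63.

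**Figure D5:**
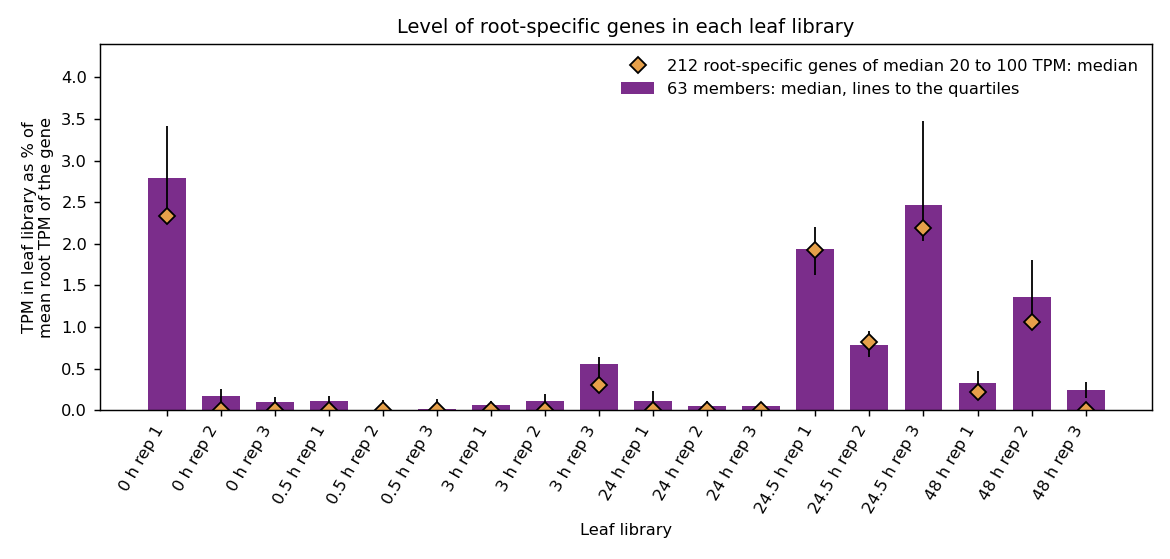
Level of root-specific genes in each of the 18 leaf libraries, as TPM in percent of the gene's mean root TPM. Bars are the median over the 63 members with lines to the quartiles, and diamonds are the median over 212 root-specific genes of lower level. The bars of 0 h replicate 1 (2.79%) and of 24.5 h replicates 1 and 3 (1.94% and 2.46%) stand above the rest.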

How the data were processed

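The authors deposited gene levels as TPM in a table per tissue, each library summing to 1000000 TPM. Per the study's methods, reads were aligned with STAR to the B73 version 5 genome and quantified with StringTie, and the submitters' processing notes also name Trimmomatic and DESeq2. Read depth cannot be recovered from TPM, so the depth and precision of each library are unknown and no count model, interval or detection limit is given. The labels and the methods differ on nutrient solution, library kit and sequencer.

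Root libraries were fitted with limma 3.58.1 in R 4.3.3 on log2(TPM + 1), a scale that understates changes of low genes, with a coefficient per time point and an empirical Bayes trend. Tests were two-sided, and p-values were adjusted by the Benjamini-Hochberg method over all 26245 genes with at least 1 TPM in at least 3 root libraries. The script was tested on simulated data. Root and leaf tables were normalized separately, so levels were not tested between tissues.

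The members and lists were chosen with earlier results of these data known. Members chosen to be given with values are the 5 most abundant and the 3 largest called rises and falls of each contrast. Those with the 3 widest and 3 narrowest ranges and those with a description were also chosen. For some of these only a median, a ratio, a log2 difference or the values of some time points are printed. The rule for undescribed members was to print at most 2 identifiers that rose and 2 that fell. The further identifiers were singled out after their values were seen. The reference gene table matched 0 of the file identifiers directly, and positions of the uncharacterized members were found through their LOC symbols. Member sequences are not used here.

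Alternatives changed the pseudocount (0.1 or 5), the filter (none, or a mean of 5 TPM), the scaling (median-of-ratios or quantile) and the fit (replicate number as block, or only the compared groups), left out single libraries, or set other limits for membership. Replicates are stated to be biological. Of 45 pairs of libraries with the same number in different groups, 7 had deviations from their group means that correlated above 0.1 (range -0.346 to 0.187). Libraries of different number were not compared in this way, so whether the numbers pair the libraries was not settled. The main fit does not pair them.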

Additional observations from a re-analysis of the deposited data

Results flagged for a closer look

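The test of the difference between the 2 responses picked out Zm00001eb140000 alone among the members. Its log2 change in the first 0.5 h of resupply minus that in the first 0.5 h of withdrawal was 1.18 (SE 0.326, limma adjusted p = 0.0251), from a change of -0.78 on withdrawal and 0.40 on resupply. The call was lost with median-of-ratios scaling (0.96, adjusted p = 0.0676) and in 6 of 12 fits that left out 1 library, where the difference ran from 0.95 to 1.43.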

How the results depend on the processing

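The 25 named changes are the 3 largest called rises and falls of each contrast and the change called in resupply minus withdrawal. Other calls printed above were not followed singly in these fits. None of the 25 changed sign in any fit run. Their calls held in 190 of 200 fits with another setting, and were lost in 10. When 1 library was left out they held in 113 of 156 fits, and 7 of the 25 held in every such fit: Zm00001eb020340, Zm00001eb405430 and Zm00001eb017930 at 24 h, and Zm00001eb020340, Zm00001eb046890, Zm00001eb046900 and Zm00001eb165300 at 24.5 h, all against 0 h. Against 0 h, leaving out 1 library gave 1 to 3 members called after 0.5 h, 0 to 7 after 3 h, 4 to 6 after 24 h, 9 to 13 after 24.5 h and 5 to 12 after 48 h. It gave 0 to 6 for 24.5 h against 24 h, 1 to 13 for 48 h against 24 h, 0 to 5 for resupply minus withdrawal and 28 to 42 by the F-test. Shares of all genes in fits that left out libraries are not given, so a change over all genes cannot be told apart from one of the members. With the replicate number as a block the counts were 3, 7, 5, 11, 7, 2, 2, 1 and 33 in the same order. Of all genes 755, 975, 989, 1359, 883, 918, 241 and 1218 were called there, and the F-test count of all genes is not given. Whether the numbers pair the libraries was not settled. Median-of-ratios scaling gave 4 members for 24.5 h against 24 h and 2 for resupply minus withdrawal, both called lower and neither the member called before, and quantile normalization gave 3 for the latter. Of all genes, median-of-ratios scaling called 820 and 1012 in these contrasts, and quantile normalization called 936 for resupply minus withdrawal. These scalings moved the median of all genes by -0.109 and -0.134 for 24.5 h against 24 h and by -0.187 and -0.184 for resupply minus withdrawal. With only the groups compared in the fit, counts were 5 at 0.5 h, 1 for 24.5 h against 24 h, 0 for 48 h against 24 h and 3 for resupply minus withdrawal. Of all genes 774, 933, 0 and 1365 were called in these fits, so for 48 h against 24 h no gene at all was called. Among the 27 members of at least 200 TPM, counts were 1 after 0.5 h, 2 after 3 h, 3 after 24.5 h, 4 after 48 h, 0 for 24.5 h against 24 h, 0 for resupply minus withdrawal and 13 by the F-test. With a leaf median of at most 1/1000 of the root median, 2 members were left, with 1 called at 3 h, 1 at 24.5 h, 1 by the F-test and 0 elsewhere. Both settings test fewer members. With means in place of medians 5 genes met the rule. Without the 3 root libraries of highest leaf RNA, added after the data were seen, counts were 0 at 0.5 h, 3 at 3 h, 0 for 24.5 h against 24 h, 0 for resupply minus withdrawal and 22 by the F-test, and 11 of the 25 named changes lost their call. The cause of these differences was not tested. With 3 replicates, a median standard error of 0.287 and unknown depth, a member that was not called is not shown to be unchanged.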
